A study of Homo sapiens with 6 samples.

Results

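Autophagy is the process by which a cell wraps part of its own contents in a double membrane, the autophagosome, and delivers it to the lysosome for breakdown. The ULK1 kinase complex starts the process, a lipid kinase complex built on BECN1 and PIK3C3 marks the membrane, ATG9 and ATG2 proteins supply lipid to it, and a pair of ubiquitin-like conjugation systems attaches proteins of the ATG8 family to it. Cargo receptors bind ATG8 proteins and the material to be removed, and mitophagy is the branch that removes mitochondria, either through the kinase PINK1 or through receptors such as BNIP3, BNIP3L and FUNDC1 that sit in the mitochondrial outer membrane. In liver, autophagy is known for clearing damaged mitochondria and protein aggregates, and the receptor SQSTM1 is known to accumulate in some liver tumours.

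The 40 genes described here form this core machinery. They were taken from a list of names and sorted by the known role of each protein, out of 58219 gene identifiers counted in the study. All 40 passed the filter on low counts, as did 14239 genes in all. RNA was sequenced from SNU-387, an established line from a pleomorphic hepatocellular carcinoma, in 3 samples that stably expressed a short hairpin RNA against YES1 (shYES1) and in 3 that stably expressed a non-target hairpin (shNT). A short hairpin RNA is trimmed inside the cell to a small guide that silences matching transcripts, and YES1 is a tyrosine kinase of the SRC family. The comparison asks how transcript levels in these liver cancer cells differ when YES1 is lowered. All 6 samples thus carried a hairpin, and no sample without one was analysed here. The sources used here give neither the sequence nor the number of the hairpins, and do not state that replicates came from separate cultures. A p-value therefore reflects only how much these samples varied, and that variation may be technical.

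Between 11290889 and 18944148 reads per library fell on genes, and values are given as CPM, a gene's reads per 1000000 after scaling the libraries by TMM, a method that takes most genes as a common level. A gene is said to have risen or fallen where the quasi-likelihood test of edgeR gave a Benjamini-Hochberg adjusted p under 0.05 over all genes tested. YES1 itself had 42.9, 43.3 and 46.0 CPM in shYES1 libraries and 178, 181 and 180 CPM in shNT libraries, and the groups did not overlap (log2 fold change of shYES1 over shNT -2.02, edgeR adjusted p = 7.93e-40). Of 14 hepatocyte markers, 11 were below 1 CPM in every library and 5, among them TTR and HNF4A, had no read. SERPINA1 fell (16.9 CPM in shYES1 and 19.2 CPM in shNT, log2 fold change -0.175). TF rose (3.4 CPM in shYES1 and 2.5 CPM in shNT, 0.46), and CPS1 was not called (1.3 CPM in shYES1 and 1.1 CPM in shNT). The label of liver tissue was thus not borne out by most of these hepatocyte transcripts. The summed level of 7 epithelial markers was 1227 to 1245 CPM in shYES1 and 928 to 937 CPM in shNT, mostly from KRT8 and KRT18. In the same list 2 markers, KRT19 and CDH1, were below 1 CPM in every library. KRT8 and KRT18 rose, and no other marker of that list was called. That of 7 mesenchymal markers was 6755 to 6881 CPM in shYES1 and 6131 to 6468 CPM in shNT, a sum made up almost wholly of COL1A1 and COL1A2. These rose with PDGFRB (log2 fold changes 0.17, 0.18 and 1.33), while the other 4, VIM (-0.94), LUM (-1.12), DCN (-1.43) and ACTA2 (-0.59), fell. Endothelial markers summed to 25.7 to 26.2 CPM in shYES1 and 25.6 to 27.1 CPM in shNT, with CLEC4G at 0; within them VWF (log2 fold change 2.09) and TEK (1.16) rose at low levels and PECAM1 (-0.30) fell. Blood markers summed to 37.9 to 40.4 CPM in shYES1 and 43.1 to 46.8 CPM in shNT, with CD3E at 0 and nearly all of the sum from CD14, which fell. The part of these markers in the results was not tested. In bulk RNA, fewer cells with a transcript and less of it in each cell cannot be told apart.

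Transcripts of the core machinery differed widely between shYES1 and shNT cells, but mostly by modest amounts. Of the 40 genes, 33 were called, beside 65.3% of all genes tested, and the difference between these shares was not tested. Of these, 22 rose in shYES1, beside 32.5% of all genes, and 11 fell, beside 32.8%. The median log2 fold change was 0.15 over the 40 genes and -0.005 over all genes tested. Among called genes the median fold was 1.29 for the machinery and 1.35 for all genes. The groups did not overlap in 33 of the 40 genes, beside 67.9% of all genes. ATG14 and CALCOCO2 were called although their groups overlapped, and AMBRA1 and ATG7 were not called although their groups were separate. In all, 9 genes were called with separate groups and a log2 fold change of at least 0.5 in size, beside 27.0% of all genes, and only BNIP3 reached 2-fold, beside 8.72%.

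**Figure D1:**
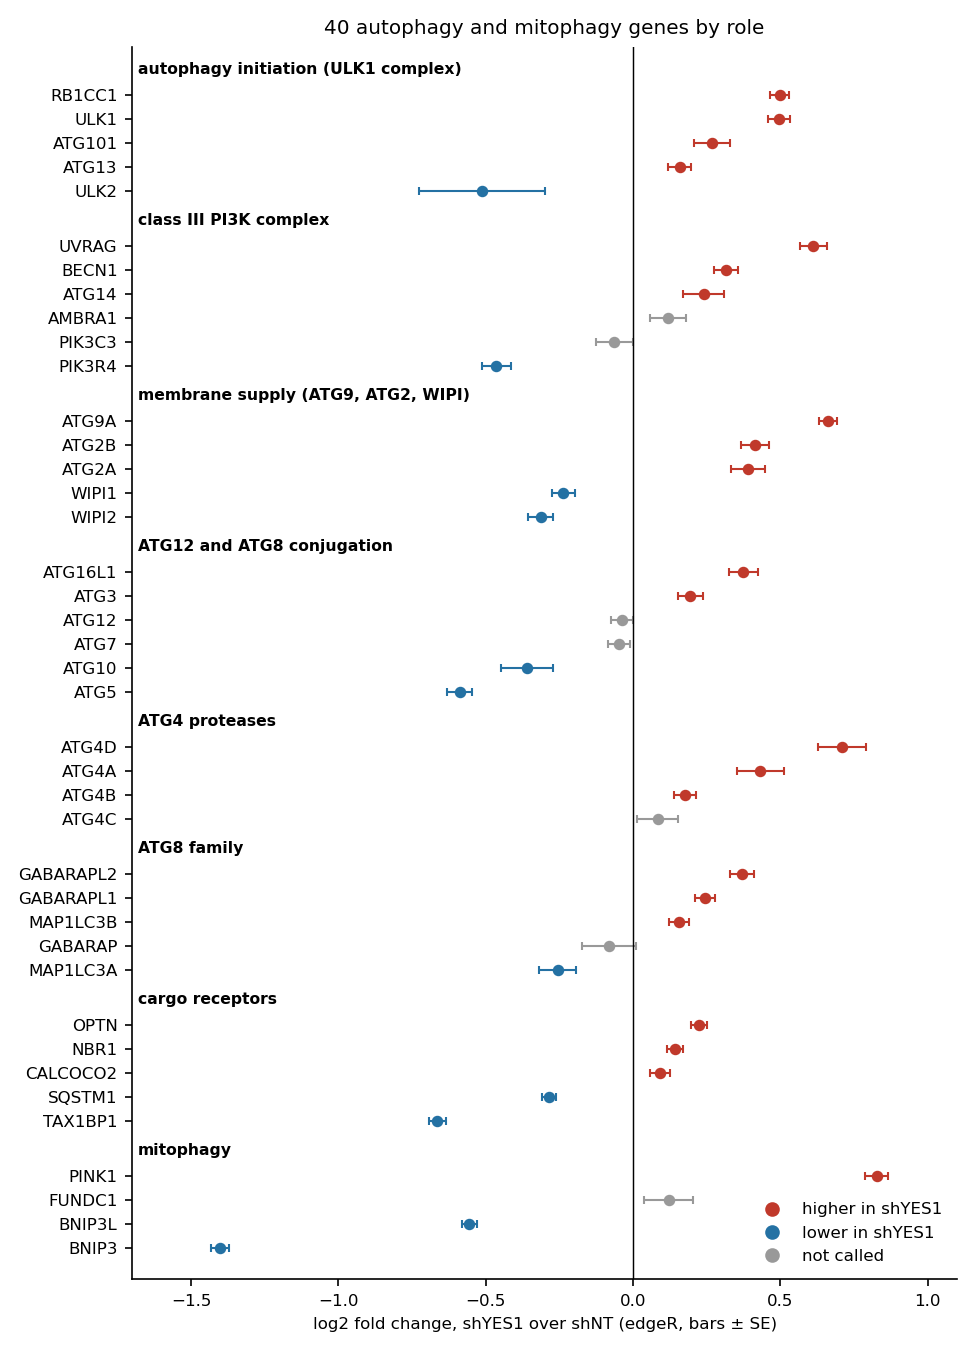
Log2 fold change of shYES1 over shNT for each of the 40 genes, grouped by role and ordered within it (points, edgeR estimate; bars, ± approximate SE; 3 libraries per group). Red genes rose, blue genes fell and grey genes were not called; values run from -1.40 for BNIP3 to 0.83 for PINK1.

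A stricter test, which asks whether a gene changed by more than 1.2-fold, called 16 of the 40, beside 36.4% of all genes tested. It placed 11 higher, beside 16.3%, and 5 lower, beside 20.1%. The split into rises and falls also moved with the scaling: over all genes 49.7% of calls were rises with TMM, 60.7% when libraries were scaled by their totals alone, and 38.7% when TMM was restricted to genes whose 3' UTR lacks the sequence CCTTTC. The median of all genes was 0.09 and -0.09 under these 2 scalings. The median of the 40 genes was 0.25 and 0.06, since a change of scaling moves all genes alike.

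The largest fall and the largest rise among the 40 genes were both in mitophagy genes. BNIP3 and BNIP3L, related receptors of the mitochondrial outer membrane whose genes are known targets of the hypoxia-inducible factors, both fell in shYES1, while PINK1, the kinase that accumulates on damaged mitochondria, rose. BNIP3 (ENSG00000176171.11, chromosome 10, 131966455 to 131982013, minus strand, GRCh38) had 171, 159 and 161 CPM in shYES1 libraries and 421, 454 and 427 CPM in shNT libraries. The highest shYES1 library was far below the lowest shNT library. BNIP3 fell by 1.40 on the log2 scale (SE 0.030), with an edgeR adjusted p of 5.2e-37, or 2.64-fold lower, the largest change among the 40.

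BNIP3L (ENSG00000104765.15) had 232, 234 and 232 CPM in shYES1 libraries and 337, 341 and 347 CPM in shNT libraries. The 3 libraries of each group lay close together and well apart from the other group (log2 fold change -0.56, SE 0.027, edgeR adjusted p = 2.52e-23). The ratio of BNIP3 to BNIP3L also differed. On the log2 scale it was -0.44, -0.55 and -0.53 in shYES1 libraries and 0.32, 0.41 and 0.30 in shNT libraries. BNIP3 reads were thus fewer than BNIP3L reads in every shYES1 library and more numerous in every shNT library, a difference of -0.85 (exact two-sided permutation test, p = 0.1, the smallest that 3 against 3 libraries allow).

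PINK1 (ENSG00000158828.7, chromosome 1, 20633455 to 20651511, plus strand) had 92.2, 94.3 and 92.9 CPM in shYES1 libraries and 51.3, 54.2 and 51.9 CPM in shNT libraries. Every shYES1 library was above every shNT library, and PINK1 rose by 0.83 on the log2 scale (SE 0.040), with an edgeR adjusted p of 4.45e-23. An exon of PINK1 shares bases with the small RNA MIR6084 on the same strand, so some reads may have been set aside as ambiguous. FUNDC1, the fourth mitophagy gene, had 15.3 ± 0.51 CPM in shYES1 and 14.0 ± 1.3 CPM in shNT (SD, n = 3 each) and was not called (edgeR adjusted p = 0.197). Summed over the 4 mitophagy genes, the level was 505 ± 5.2 CPM in shYES1 and 842 ± 19 CPM in shNT, 40% lower. Most of that sum came from BNIP3 (mean 164 CPM in shYES1 and 434 CPM in shNT) and BNIP3L (233 CPM in shYES1 and 342 CPM in shNT). The sum therefore does not describe PINK1 or FUNDC1.

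**Figure D2:**
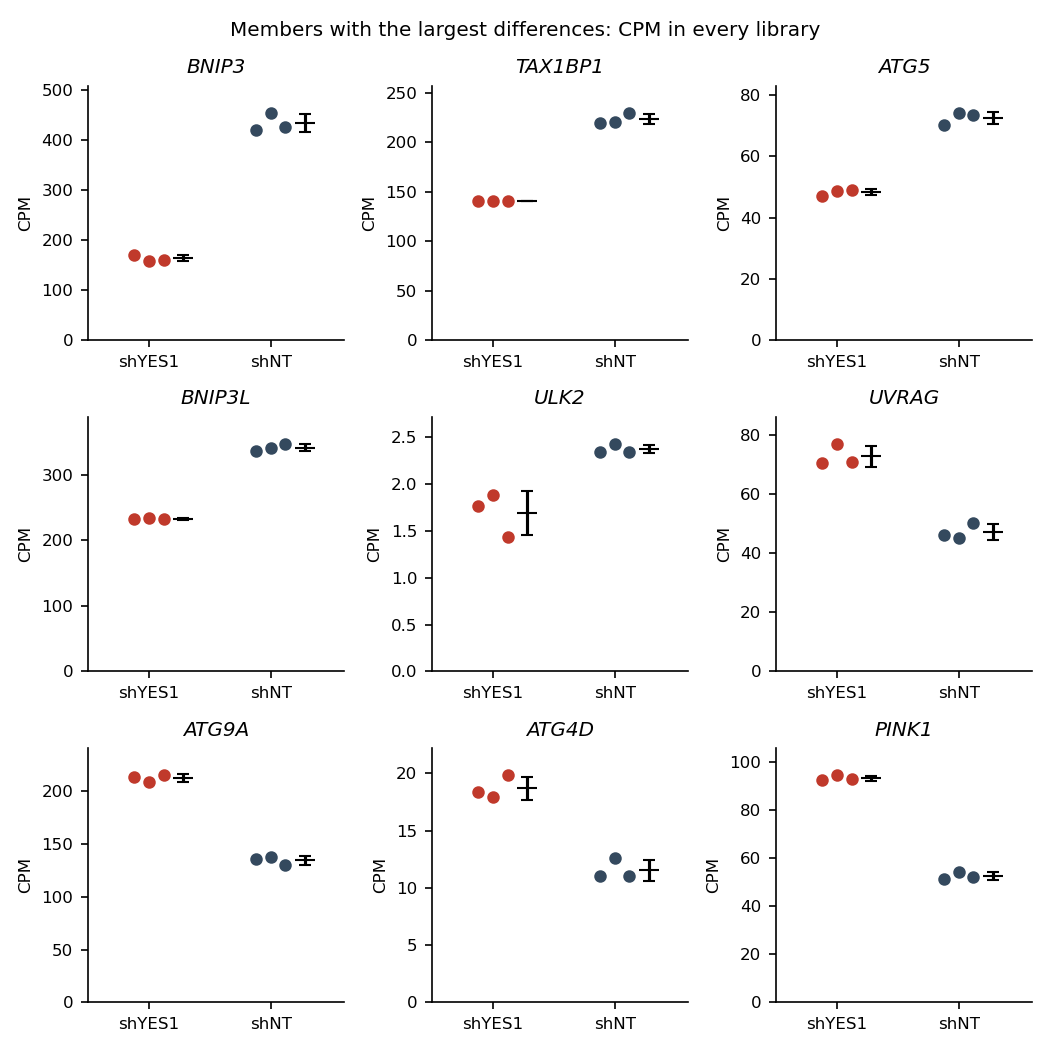
CPM in each library (points) with the mean and SD beside them, for the 9 genes called with separate groups and a log2 fold change of at least 0.5 in size; shYES1 is on the left and shNT on the right, and each axis starts at 0. In BNIP3, for example, the 3 shYES1 libraries lie at 159 to 171 CPM and the 3 shNT libraries at 421 to 454 CPM.

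The promoter of BNIP3 is shown because hypoxia-inducible factors are known to bind the core letters ACGTG or GCGTG. Transcripts of a hypoxia list, chosen with their fall in these libraries known, also fell. The part of these factors in the level of BNIP3 was not tested. The first stretch is the RefSeq sequence (GRCh38.p14) upstream of BNIP3 at chr10:131982014-131982173, minus strand, written 5′ to 3′ and ending 91 bases before the RefSeq start. The other sequences are 30-base windows around the first ACGTG match upstream of CA9, chr9:35673898-35673927, plus strand, and of P4HA1, chr10:73096935-73096964, minus strand, which are among the 3 most strongly lowered named genes of the hypoxia list. No such window was obtained for ADM, the remaining gene of these 3. Upstream here means before the RefSeq start. The windows of CA9 and P4HA1 lie inside the bounds of these genes in GENCODE, and the BNIP3 stretch lies outside those of BNIP3. Capitals mark ACGTG and GCGTG on either strand, which on the strand shown also read CACGT and CACGC.
BNIP3: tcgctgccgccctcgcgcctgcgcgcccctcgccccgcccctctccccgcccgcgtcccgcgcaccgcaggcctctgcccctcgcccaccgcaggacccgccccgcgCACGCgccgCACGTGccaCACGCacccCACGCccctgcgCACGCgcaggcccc
CA9: tcgtttccaatgCACGTacagcccgtacac
P4HA1: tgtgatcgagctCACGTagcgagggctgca

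In BNIP3 the palindrome CACGTG, which holds ACGTG on both strands, begins 134 bases before the start and is flanked by 4 matches to GCGTG. Of 35116 RefSeq promoters of 300 bases, 7.26% held CACGTG, 21.4% held ACGTG and 36.5% held GCGTG on either strand. Of these promoters, 42 belonged to 34 of the 40 genes, some genes having several. None was available for BNIP3L, PINK1, UVRAG, ATG4D, RB1CC1 or MAP1LC3A, so these genes were not examined. CACGTG was in 7.14% of these 42 (those of BNIP3, ATG14 and ATG3), ACGTG in 28.6% and GCGTG in 47.6%. Of 29 promoters of 20 hypoxia genes, 24.1% held CACGTG and 58.6% ACGTG. ATG14 and ATG3 rose in shYES1 while BNIP3 fell, so genes with CACGTG were found in both directions. These matches describe letters and not binding.

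Over all genes tested 32.5% rose in shYES1. The initiation complex was mostly higher, though only RB1CC1 and ULK1 of its genes were higher in the 1.2-fold test. Of its 5 genes, 4 rose: RB1CC1, the scaffold also called FIP200 (163 ± 1.8 CPM in shYES1 and 116 ± 3.0 CPM in shNT, log2 fold change 0.498), the kinase ULK1 (109 ± 5.0 CPM in shYES1 and 77.1 ± 1.1 CPM in shNT, 0.495), and the partners ATG101 (0.27) and ATG13 (0.16). RB1CC1 and ULK1 lay just under the size for which values are given by library. ULK2, the kinase closest to ULK1, had 1.77, 1.88 and 1.43 CPM in shYES1 libraries and 2.34, 2.42 and 2.34 CPM in shNT libraries. The groups were separate but ULK2 was the least expressed of the 40 genes, with as few as 22 reads in a library, and was the only one under 100 reads. It fell by 0.51 on the log2 scale (SE 0.21), with an edgeR adjusted p of 0.033. That call was lost in 8 of 16 alternative analyses, where the adjusted p was up to 0.174; among them it was lost without shYES1 library 3 and without any of the 3 shNT libraries.

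Because ULK2 is so low, ULK1 supplied nearly all reads of the pair in both groups: the log2 ratio of ULK1 to ULK2 was 6.02 ± 0.20 in shYES1 and 5.02 ± 0.043 in shNT (SD, n = 3 each), with no overlap (exact two-sided permutation test, p = 0.1, the smallest possible). The summed level of the 5 genes was 397 ± 5.0 CPM in shYES1 and 303 ± 6.7 CPM in shNT.

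The lipid kinase complex moved in both directions. UVRAG, a partner of BECN1 known from endosomal transport and autophagosome maturation (ENSG00000198382.8, chromosome 11, 75815167 to 76143195, plus strand), had 70.5, 76.9 and 70.9 CPM in shYES1 libraries and 46.2, 45.2 and 50.1 CPM in shNT libraries. All shYES1 libraries were above all shNT libraries (log2 fold change 0.61, SE 0.046, edgeR adjusted p = 4e-16). BECN1, the core scaffold, rose by 0.32, and ATG14, which directs the complex to the forming autophagosome, rose by 0.24 with overlapping groups. PIK3R4, the regulatory subunit also called VPS15, had 37.7 ± 1.2 CPM in shYES1 and 51.8 ± 0.82 CPM in shNT and fell (log2 fold change -0.46, edgeR adjusted p = 1.3e-11). The catalytic subunit PIK3C3 (32.3 ± 2.4 CPM in shYES1 and 33.9 ± 3.2 CPM in shNT) and AMBRA1, a regulator of BECN1 and ULK1 (28.8 ± 1.7 CPM in shYES1 and 26.7 ± 0.45 CPM in shNT), were not called, with edgeR adjusted p of 0.375 and 0.0788. AMBRA1 was called once shYES1 library 2 was left out (log2 fold change 0.16, edgeR adjusted p = 0.034).

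Genes for membrane supply were split by family. ATG9A, a lipid scramblase carried on the vesicles that seed the autophagosome (ENSG00000198925.10, chromosome 2, 219219380 to 219229717, minus strand), had 213, 208 and 215 CPM in shYES1 libraries and 135, 138 and 130 CPM in shNT libraries. The groups did not overlap, and ATG9A rose by 0.66 on the log2 scale (SE 0.031), with an edgeR adjusted p of 8.49e-24. Both ATG2 genes, which code for lipid transfer proteins, rose by similar amounts, ATG2A by 0.39 and ATG2B by 0.41, and the log2 ratio between them was -0.77 ± 0.11 in shYES1 and -0.74 ± 0.085 in shNT, with overlap (exact two-sided permutation test, p = 0.8). Both WIPI genes, whose proteins read the lipid made by PIK3C3, fell, WIPI1 by 0.24 and WIPI2 by 0.31 on the log2 scale. The difference in the log2 ratio of WIPI1 to WIPI2 was 0.10 with overlapping groups (p = 0.4 in the same exact permutation test).

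Of the 6 conjugation genes, 2 rose, 2 fell and 2 were not called, beside 32.5% of all genes tested that rose and 32.8% that fell. ATG5, the protein to which ATG12 is joined (ENSG00000057663.14, chromosome 6, 106045423 to 106325791, minus strand), had 47.2, 48.8 and 49.0 CPM in shYES1 libraries and 70.3, 74.1 and 73.4 CPM in shNT libraries. No shYES1 library reached the shNT range (log2 fold change -0.59, SE 0.043, edgeR adjusted p = 1.43e-16). Its partners did not follow it: ATG16L1, which binds the ATG12-ATG5 conjugate, rose by 0.37 (47.9 ± 1.0 CPM in shYES1 and 36.9 ± 0.36 CPM in shNT), and ATG12 was not called (92.2 ± 0.62 CPM in shYES1 and 94.7 ± 3.5 CPM in shNT, edgeR adjusted p = 0.386). ATG7, the activating enzyme for both systems, was not called either (86.6 ± 2.4 CPM in shYES1 and 89.9 ± 1.7 CPM in shNT, edgeR adjusted p = 0.254).

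Of the conjugating enzymes, ATG3, which serves the ATG8 family, rose by 0.20, and ATG10, which serves ATG12, fell by 0.36 on the log2 scale (10.7 ± 0.44 CPM in shYES1 and 13.6 ± 0.92 CPM in shNT). At the ATG10 locus 96.2% of the stranded reads fell on the opposite strand, where the level was 277 CPM in shYES1 and 335 CPM in shNT, so the reads given for ATG10 are the small remainder. The corresponding share was 45.4% for ATG7, 20.3% for PINK1 and 14.8% for ATG4D, and under 5% for the other 36 genes. The deposited column counted without regard to strand does not add the strands up: it held 91.9% as many reads as the strand used for ATG10, 89.0% for ATG7, 75.7% for ATG4D and 30.4% for PINK1. In that column the log2 fold changes were -0.37 for ATG10, -0.025 for ATG7, 0.74 for ATG4D and 0.80 for PINK1.

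The 4 ATG4 proteases trim ATG8 proteins before conjugation and release them from membranes. Of these, 3 rose, beside 32.5% of all genes tested, and ATG4C was not called (21.2 ± 0.97 CPM in shYES1 and 20.01 ± 0.89 CPM in shNT, edgeR adjusted p = 0.293). ATG4D (ENSG00000130734.9, chromosome 19, 10543895 to 10553418, plus strand) had 18.4, 17.9 and 19.8 CPM in shYES1 libraries and 11.0, 12.6 and 11.0 CPM in shNT libraries. The groups were clearly separate (log2 fold change 0.71, SE 0.082, edgeR adjusted p = 2.12e-10). ATG4A rose by 0.43 at a similar level, and ATG4B, the most highly expressed of the 4, rose by 0.18 (90.3 ± 2.6 CPM in shYES1 and 80.1 ± 0.38 CPM in shNT).

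The ATG8 family comprises the LC3 and GABARAP proteins that decorate the autophagosome. GABARAPL2 rose by 0.37, GABARAPL1 by 0.25 and MAP1LC3B by 0.16, while MAP1LC3A fell by 0.26 on the log2 scale. The 2 LC3 genes therefore moved apart: the log2 ratio of MAP1LC3A to MAP1LC3B was -2.68 ± 0.037 in shYES1 and -2.26 ± 0.047 in shNT, with no overlap (exact two-sided permutation test, p = 0.1, the smallest possible). That of GABARAPL1 to GABARAPL2 was 0.902 ± 0.034 in shYES1 and 1.025 ± 0.061 in shNT, also with no overlap (p = 0.1 in the same exact permutation test). GABARAP was not called (11.1 ± 0.60 CPM in shYES1 and 11.7 ± 0.43 CPM in shNT, edgeR adjusted p = 0.444). Its exons overlap another annotated locus on the same strand, and MAP1LC3B has a close copy, MAP1LC3B2, with 3 to 11 reads per library, so both values are uncertain.

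Levels of different genes were compared per kilobase of annotated exon, only roughly, because the exons of all annotated transcripts of a gene count. On that scale GABARAPL1 led the family in both groups (33.3 CPM per kb in shYES1 and 28.2 in shNT). MAP1LC3B followed (27.1 CPM per kb in shYES1 and 24.2 in shNT), then GABARAPL2 (24.0 in shYES1 and 18.6 in shNT) and MAP1LC3A (12.8 in shYES1 and 15.2 in shNT). GABARAP was the lowest (4.90 CPM per kb in shYES1 and 5.17 in shNT). Its place is uncertain, since reads shared with the overlapping locus may have been set aside. For GABARAP the column counted without regard to strand held 4.96% as many reads as the strand used. The order of the 5 was thus the same in both groups, and no neighbours in it overlapped within their SD. That SD covers only the spread of libraries, and neither the overlap nor the choice of exon length.

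**Figure D3:**
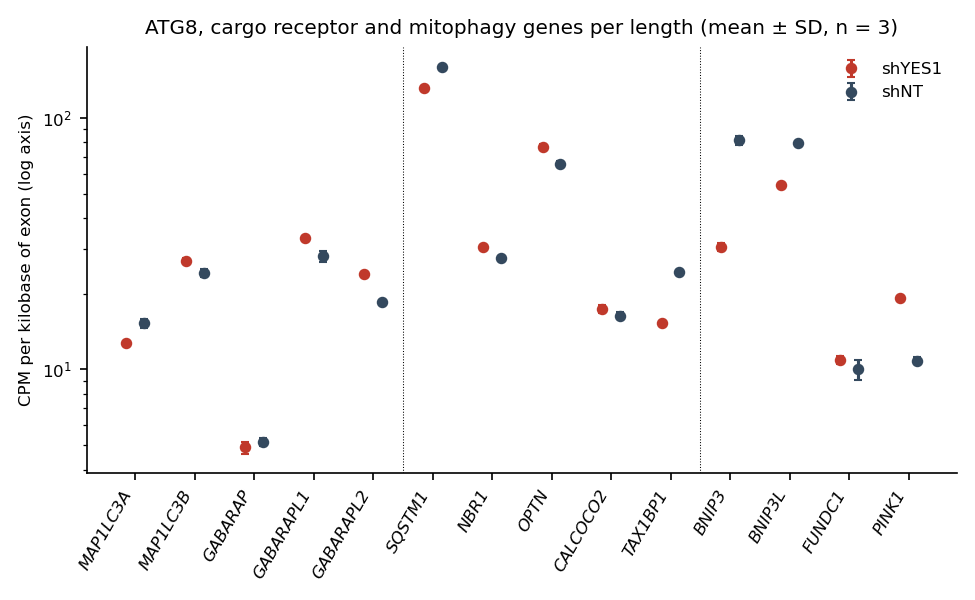
CPM per kilobase of exon on a log axis for the ATG8 family, the cargo receptors and the mitophagy genes (points, mean; bars, SD; n = 3 libraries per group), with shYES1 left of shNT in each pair. SQSTM1 is the highest in both groups, at 132 CPM per kb in shYES1 and 160 in shNT, and the BNIP3 pair shows the widest gap between groups, 30.8 CPM per kb in shYES1 and 81.4 in shNT.

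Among cargo receptors TAX1BP1 and SQSTM1 fell, while OPTN, NBR1 and CALCOCO2 rose by smaller amounts. In the 1.2-fold test only TAX1BP1 was called. TAX1BP1, a receptor for ubiquitin-tagged aggregates (ENSG00000106052.13, chromosome 7, 27739331 to 27844564, plus strand), had 141.0, 140.7 and 140.8 CPM in shYES1 libraries and 219.6, 220.4 and 229.1 CPM in shNT libraries. The shYES1 libraries were almost equal and all lower (log2 fold change -0.66, SE 0.030, edgeR adjusted p = 2.29e-24). SQSTM1, also called p62, was the most abundant transcript of the 40, with 1007 ± 18 CPM in shYES1 and 1226 ± 2.5 CPM in shNT, and fell by 0.28 on the log2 scale (edgeR adjusted p = 8.51e-15). OPTN, a receptor active in mitophagy, rose by 0.22 (395 ± 9.5 CPM in shYES1 and 338 ± 9.2 CPM in shNT) and NBR1, a partner of SQSTM1, by 0.14.

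CALCOCO2, also called NDP52, was called with the smallest change of all (log2 fold change 0.09, edgeR adjusted p = 0.0144). Its groups overlapped, with 146 ± 5.3 CPM in shYES1 and 136 ± 4.2 CPM in shNT, and the call was lost without shYES1 library 1 or 2, without shNT library 2 and with DESeq2, with log2 fold changes of 0.07 to 0.10. Summed over the 5 receptors, the level was 1946 ± 33 CPM in shYES1 and 2157 ± 18 CPM in shNT. The sum over all 40 genes, to which SQSTM1 gave the most, was also lower, 4483 ± 44 CPM in shYES1 and 4775 ± 36 CPM in shNT, although 22 genes rose and 11 fell. In CPM the largest fall among the 40 was that of BNIP3 (164 in shYES1 and 434 in shNT), ahead of SQSTM1 (1007 in shYES1 and 1226 in shNT).

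Other genes of the pathway were followed in 6 lists that hold 139 genes, of which 134 were tested. Of these, 51 rose, 57 fell and 26 were not called, with a median log2 fold change of -0.02. These counts include a hypoxia list of 22 genes, all of which fell, that was chosen with the fall of such genes in these libraries known. The other 5 lists held 113 tested genes, of which 51 rose, 36 fell and 26 were not called, with a median of 0.06. Each list stands beside the same shares over all genes, 32.5% higher and 32.8% lower. Among 24 other mitophagy genes tested, 11 rose and 8 fell, and the falls were near the share over all genes. The largest rises were BCL2L13, a further mitophagy receptor (0.56), DNM1L, which divides mitochondria (0.56), and TBK1, a kinase that acts on OPTN (0.49). The largest falls were MFN1, which fuses mitochondria (27.9 ± 2.2 CPM in shYES1 and 69.2 ± 2.0 CPM in shNT, log2 fold change -1.30), the outer membrane channel VDAC1 (-0.85) and USP30, a deubiquitinase that opposes mitophagy (-0.70).

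Among 16 receptors of the endoplasmic reticulum and other selective cargo, 9 rose and 4 fell. Of those with a mean of at least 5 CPM, TOLLIP (0.50), CALCOCO1 (0.42) and UBAC2 (0.35) rose the most, and RETREG2 (-1.27), the ferritin receptor NCOA4 (-0.48) and TRIM5 (-0.30) fell the most. RETREG1, at 0.853 ± 0.17 CPM in shYES1 and 1.69 ± 0.59 CPM in shNT, also fell (-0.94) and is named here after its values were seen. Among 15 accessory factors, 7 rose and 7 fell: RUBCN, an inhibitor of the UVRAG complex (0.81), TECPR2 (0.67) and the kinase DAPK1 (0.45) rose, and TP53INP2 (-1.45), EI24 (-1.10) and WDR45B (-0.69), a relative of the WIPI genes, fell.

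Of 18 genes for fusion with the lysosome, 5 rose, 6 fell and 7 were not called, close to the shares over all genes. VAMP8, a SNARE of the lysosomal side, had 4.09 ± 0.43 CPM in shYES1 and 18.9 ± 1.0 CPM in shNT (log2 fold change -2.19, edgeR adjusted p = 1.16e-23). RILP (0.53), VPS39 (0.37) and VPS16 (0.36) rose the most, and EPG5 (-0.26) and VPS33A (-0.25) were next below VAMP8. The call of VPS33A was lost without shNT library 1 (log2 fold change -0.18, edgeR adjusted p = 0.0893).

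Among 40 tested genes of control by TFEB, AMPK and mTORC1, which sense lysosomes, energy and nutrients, 19 rose and 11 fell. TFEB, the transcription factor of lysosome and autophagy genes, had 23.2 ± 0.39 CPM in shYES1 and 15.1 ± 0.41 CPM in shNT (log2 fold change 0.62). PRKAG2, a regulatory subunit of AMPK (0.82), and the transcription factor FOXO4 (0.80) rose, and among those averaging 5 CPM or more the catalytic AMPK subunit PRKAA2 (-1.57), DDIT4, an inhibitor of mTORC1 that is also in the hypoxia list (-0.64), and the small GTPase RRAGA (-0.62) fell.

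The hypoxia list stood at the other end: all 22 of its genes fell, and their median was -1.10 on the log2 scale. The pH regulator CA9 had 5.06 ± 0.56 CPM in shYES1 and 55.9 ± 6.2 CPM in shNT (log2 fold change -3.45), the peptide hormone ADM 9.54 ± 1.1 CPM in shYES1 and 53.9 ± 4.4 CPM in shNT (-2.47), and the collagen enzyme P4HA1 77.7 ± 0.84 CPM in shYES1 and 379 ± 13 CPM in shNT (-2.29). The count of this list is a description. The part of the hypoxia response in the levels of BNIP3 and BNIP3L was not tested.

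**Figure D4:**
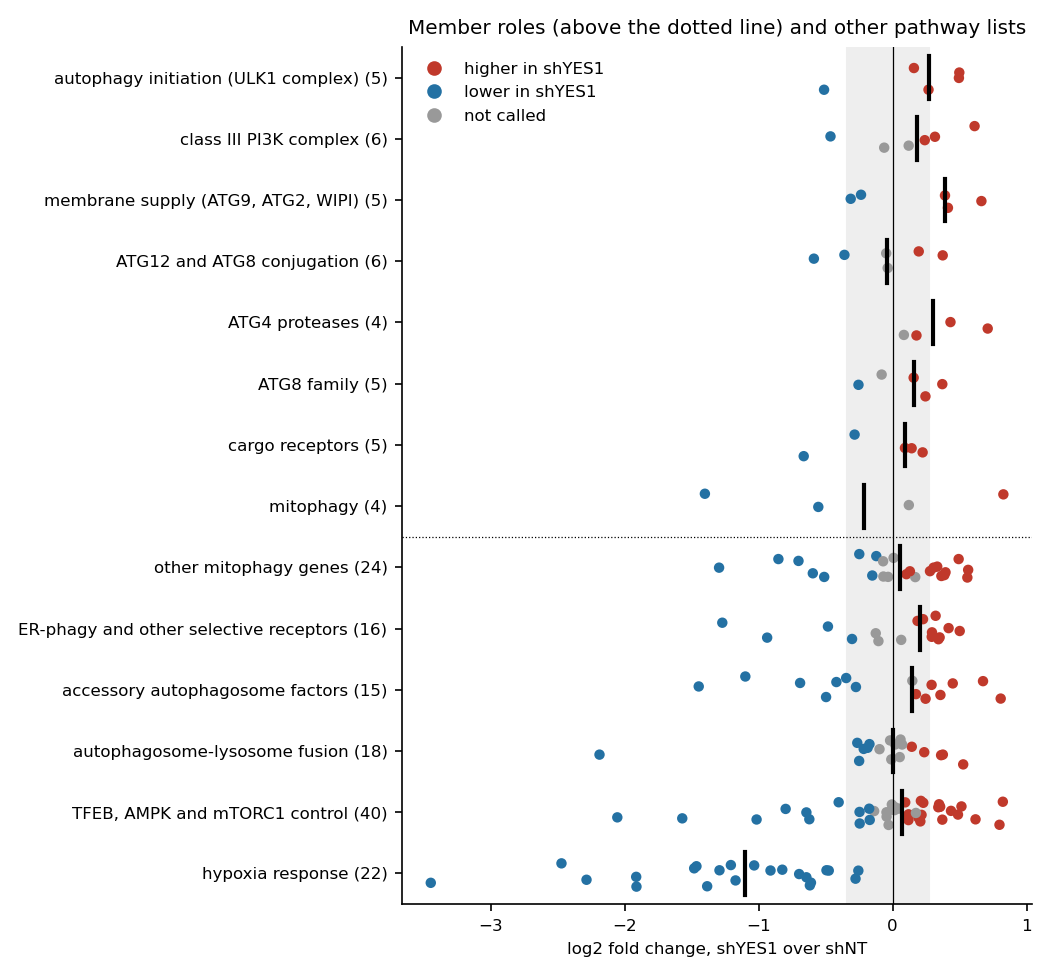
Log2 fold change of shYES1 over shNT for each tested gene (points) by role of the 40 genes (above the dotted line) and by list of other pathway genes (below it), with the number tested in parentheses; black bars are medians and the grey band holds the middle of all genes tested, from -0.34 to 0.28. The hypoxia list lies wholly below 0, and the medians of the other rows lie between -0.22 and 0.39.

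A hairpin RNA can also lower transcripts other than its target through short matches in their 3' UTR, and earlier results of these data had pointed to the sequence CCTTTC there. Of 11905 tested genes with an annotated 3' UTR, 45.4% held it; those with it had a median log2 fold change of -0.09 (30.5% rose and 44.5% fell) and those without it 0.09 (41.8% rose and 26.2% fell). Of the 40 genes 18 held it, or 45%, with a median of 0.09 (8 rose and 4 fell), and 22 did not, with a median of 0.23 (14 rose and 7 fell). Of the 11 genes that fell, ULK2, WIPI2, ATG10 and BNIP3 held it, and TAX1BP1, ATG5, BNIP3L, PIK3R4, SQSTM1, MAP1LC3A and WIPI1 did not. GENCODE transcript sequences around the sites of BNIP3 (bases 975 to 980 of its 3' UTR) and ULK2 (bases 202 to 207 and 690 to 695) are shown because these are the most strongly changed genes with a site, with CCTTTC in capitals.
BNIP3: cttgatgtttcaCCTTTCcacgcttaattc
ULK2, first site: ggagaaaatcacCCTTTCcctttttctttg
ULK2, second site: gtatacatagacCCTTTCcagaattcacat

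Lengths differed as well: the median 3' UTR had 2470 bases in all tested genes with the sequence and 799 bases in those without it, and 2072 and 1172 bases among the 40 genes. Its part in the levels of these genes was not tested.

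Of the 33 called genes, 16 kept their call and direction under all 16 alternative analyses, among them the 8 genes other than ULK2 for which values are given by library. No called gene changed direction under any of them. Under library totals alone each log2 fold change shifted up and under TMM restricted to genes without CCTTTC each shifted down, which ended the calls of ATG13, ATG14, MAP1LC3B, NBR1 and CALCOCO2 in the restricted scaling.

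**Figure D5:**
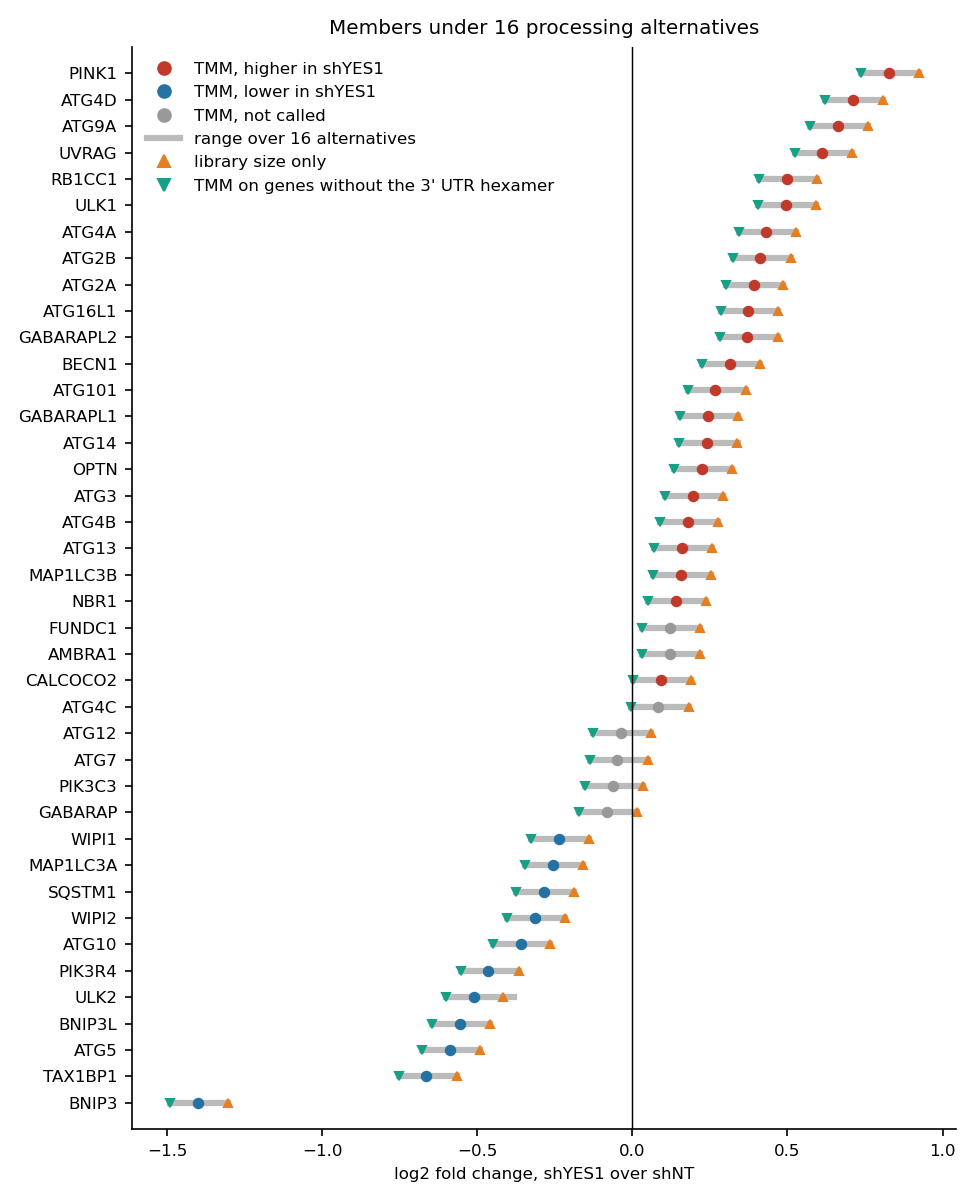
Log2 fold change of shYES1 over shNT for each of the 40 genes with TMM scaling (circles, coloured by call), with library totals alone (upward triangles) and with TMM on genes whose 3' UTR lacks the hexamer (downward triangles); grey bars span all 16 alternatives. A change of scaling shifts all genes alike, and the bars of genes close to 0, from CALCOCO2 to GABARAP, touch or cross it.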

How the data were processed

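RNA was measured in 6 samples of SNU-387 cells, 3 shYES1 and 3 shNT, grouped by the labels. The deposited values are whole-number read counts per gene, not normalized by the authors, from libraries made with a stranded poly(A) kit, per the labels' protocols. Per the submitters' processing notes, CASAVA 1.8.2, Trimmomatic 0.35, STAR 2.5.1b and build GRCh38 were used; the sources used here do not give the annotation release. Counts of the reverse strand were used, which held 93.5% to 94.0% of stranded gene reads. The 4 entries that name no gene held 19.8% to 20.3% of reads and were left out. Of 58219 identifiers, 57437 were matched to symbols and 57878 to GENCODE release 29 (without version), the source of coordinates, lengths and 3' UTRs; promoters are from RefSeq (GRCh38.p14).

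Counts were tested in R 4.3.3 with edgeR 4.0.16 on all genes kept by filterByExpr (minimum count 10, minimum total 15), with TMM factors and a robust quasi-likelihood fit by group; the script was tested on simulated data. The SE is the log2 fold change divided by the square root of F and is approximate. Libraries of a group differed by more than sampling noise (chi-square per degree of freedom 1.15 to 2.19). The common biological coefficient of variation was 2.10%.

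All 40 genes are named. Values by library are given for those called with separate groups and a log2 fold change of at least 0.5 in size, and of each pathway list up to 3 called rises and 3 called falls with a mean of at least 5 CPM are named. The genes, lists, rules and alternatives were chosen with earlier results of these data known, which includes the sequence CCTTTC. Alternatives were RLE scaling, library size alone, TMM on genes without CCTTTC, DESeq2 1.42.0, limma-voom 3.58.1, no filter, 1 CPM in 3 libraries, unstranded counts, a replicate block, a test against 1.2-fold, and leaving out each library.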

Additional observations from a re-analysis of the deposited data

How the results depend on the processing

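Under the test against 1.2-fold, 11 of the 40 genes were higher and 5 lower in shYES1, in place of 22 and 11, and 26 of the other pathway genes were higher, in place of 51; this test asks for more than a difference from 0. The median log2 fold change of the 40 genes was 0.246 with library size alone and 0.060 with TMM on genes without CCTTTC, in place of 0.149, while over all genes 5799 rose and 3762 fell, or 3580 rose and 5671 fell, in place of 4623 and 4676. Leaving out each library in turn gave 21 to 22 of the 40 higher, 10 to 11 lower and a median of 0.122 (without shNT library 1) to 0.171, and 47 to 49 pathway genes higher and 53 to 55 lower. Same-numbered samples were not paired by the labels. Their deviations correlated at 0.0116 to 0.0252, and those of the other pairs at -0.038 to 0.0248. Values so near 0 cannot show whether same-numbered samples share more than a number. shYES1 library 3 correlated best with shNT library 1. With the replicate block 22 of the 40 genes were higher and 11 lower, the median was 0.150, and 51 pathway genes were higher and 56 lower.

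The other alternatives kept the counts of the 40 genes within 17 to 25 higher and 10 to 14 lower. Of the 7 genes not called, 6 gained a call under some alternative, and only GABARAP did not in those that gave it a value. Depth limits ULK2, at 22 to 37 reads per library. The protein products were not measured, and transcript levels do not give the rate of autophagy.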
